A study of Mus musculus with 14 samples.

Results

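The messenger RNA of the mouse zinc finger genes whose symbols are Zfp followed by a number was followed in germinal centre B cells of the light zone (LZ) and dark zone (DZ). A symbol counted as a member where the number was followed by nothing, by letters, or by an l and a second number as in Zfp36l1, and pseudogene symbols ending in -ps were left out. The rule found 227 members among the 9969 genes of the table of unique molecular identifier (UMI) counts, or 225 without the 2 symbols written with l and a number. With edgeR's quasi-likelihood test, 1 of the 148 tested members passed in 1 of the 7 comparisons. That comparison was LZ over DZ as the mean of both genotypes, where 1.43% of all genes tested passed. The member was Zfp422, lower in LZ than in DZ and read in 0 UMIs in SykY317F LZ cells. In wild type cells alone its zone difference did not pass (adjusted p = 0.745, edgeR). The call for the mean was also lost when certain single libraries were dropped.

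Popliteal lymph nodes of C57BL/6 chimeric mice, with 50% SykY317F and 50% wild type (WT) cells, gave the sorted cells 14 days after NP-KLH immunization. Syk is a kinase that acts just downstream of the B cell receptor, and in SykY317F the numbered tyrosine is changed to phenylalanine. There were 3 SykY317F LZ, 4 WT LZ, 3 SykY317F DZ and 4 WT DZ libraries, and both genotypes had developed and responded inside chimeric hosts. Whether libraries of 1 group stem from separate mice or from pools is not stated by the labels, so that p-values measure the spread between these libraries, which may be technical.

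Zinc finger genes encode proteins that fold short loops around zinc ions. In the classical C2H2 finger, 2 cysteines and 2 histidines hold the ion, and arrays of such fingers read DNA sequence. Many mouse members also carry a KRAB box, a domain that recruits the corepressor Trim28 and silencing enzymes, chiefly to retroelements, and these genes lie in clusters of related copies. A smaller CCCH type, as in Zfp36, binds AU-rich stretches of messenger RNA and speeds its decay, so that the family name does not stand for transcription factors alone.

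The GRCm38 annotation placed 226 of the 227 members, all of them protein coding, and the readthrough symbol Zfp91Cntf had no position. Chromosome 7 held 57 members, chromosome 17 held 28 and chromosome 13 held 23, and 104 members had another member within 100 kb. A C2H2 pattern was found in the annotated proteins of 217 members, with a median of 10 fingers over all members and at most 33. The 9 members without it were Zfp36, Zfp36l1 and Zfp36l2, which are RNA-binding proteins, with Zfp330, Zfp365, Zfp703, Zfp707, Zfp839 and Zfp935. A KRAB box pattern matched in 99 members and did not match in 127. A missed match does not show that the domain is absent, and Zfp445, a known KRAB protein, was among the 127.

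The coding sequence of 1 finger is shown for Zfp422 and for Zfp1, the member with a KRAB box match and the highest level, as the element that defines the family, from the GENCODE transcripts of GRCm38. The finger of Zfp422 lies at chr6:116626806-116626868 on the minus strand and that of Zfp1 at chr8:111669901-111669963 on the plus strand. Capitals mark the codons of the 2 cysteines and 2 histidines that hold the zinc ion.
Zfp422: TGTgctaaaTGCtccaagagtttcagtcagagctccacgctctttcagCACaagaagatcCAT
Zfp1: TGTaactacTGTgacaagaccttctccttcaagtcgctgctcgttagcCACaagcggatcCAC

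Promoters are shown for Zfp422, the called member, and for Zfp385a, which had the highest fitted log2 fold change of LZ over DZ among the tested members as the mean of both genotypes. They come from RefSeq (GRCm38.p6) and run from 250 bases before to 50 bases after the start, at chr6:116628652-116628951 and chr15:103340037-103340336, both on the minus strand. Zfp385a has 2 listed starts, of which the first was taken. The Zfp422 window lies wholly inside the GENCODE span of the gene, given below, whose start is further upstream. By that annotation the window is part of the gene and not ahead of it. Capitals mark matches on either strand to any of 5 short motifs. The GC box was searched as GGGCGG and the ETS core as CCGGAA. The E-box was searched as CACGTG, and the CCAAT box by its own letters. The core promoter element of the TATA type was searched as TATAAA.
Zfp422: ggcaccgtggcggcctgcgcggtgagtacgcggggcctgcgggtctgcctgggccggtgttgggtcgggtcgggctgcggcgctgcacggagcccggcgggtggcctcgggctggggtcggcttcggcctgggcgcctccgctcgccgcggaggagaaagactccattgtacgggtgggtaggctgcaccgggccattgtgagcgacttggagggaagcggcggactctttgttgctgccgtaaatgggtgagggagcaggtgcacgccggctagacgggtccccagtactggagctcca
Zfp385a: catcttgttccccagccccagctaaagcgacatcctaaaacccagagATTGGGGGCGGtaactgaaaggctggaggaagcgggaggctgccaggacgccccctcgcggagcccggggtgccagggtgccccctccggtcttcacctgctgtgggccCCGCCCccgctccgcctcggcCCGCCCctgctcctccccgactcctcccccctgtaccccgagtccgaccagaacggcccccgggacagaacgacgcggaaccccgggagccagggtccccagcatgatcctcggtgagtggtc

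The Zfp422 window held 32 CpG dinucleotides and 71.0% GC and none of the 5 motifs, and the Zfp385a window held 3 GC boxes, 1 CCAAT box, 23 CpG dinucleotides and 70.0% GC, with no overlap between matches. Of the 227 members, 188 matched a promoter in the RefSeq table. A GC box was present in 49.5% of these member promoters, in 65.8% of 7685 promoters of genes in the UMI table and in 35.9% of all 27025 promoters. A CCAAT box was present in 50.0%, 39.7% and 37.9% of the same sets, and an ETS core in 37.2%, 31.5% and 15.2%. An E-box was present in 8.51%, 10.9% and 7.24%, and a TATA box in 5.85%, 6.68% and 14.2%. The 86 promoters of members with a KRAB box match had a median of 12 CpG dinucleotides, against 21 in the 102 promoters of the other members.

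Library totals were 149641 to 379125 UMIs in SykY317F LZ, 499443 to 1600902 in WT LZ, 381954 to 1413310 in SykY317F DZ and 747948 to 1767898 in WT DZ, so that SykY317F LZ had the lowest depth. As CPM (UMIs scaled by TMM to a library of 1000000), 3 UMIs amounted to 8.95 to 18.8 CPM in SykY317F LZ libraries and to 1.73 to 8.29 CPM in the others. All 10 germinal centre B cell markers in the table were detected in every group. They summed to 7745 to 8608 CPM in SykY317F LZ and 8365 to 9648 CPM in SykY317F DZ. In WT they summed to 6394 to 8391 CPM in LZ and 8811 to 12371 CPM in DZ, which did not overlap. The 6 T cell markers in the table summed to 47.8 to 158 CPM in SykY317F LZ and 55.7 to 173 CPM in WT LZ. In DZ the T cell sums did not overlap, with 90.7 to 218 CPM in SykY317F and 19.4 to 58.7 CPM in WT. The 7 myeloid markers summed to 240.3 to 514 CPM in SykY317F DZ, against 75.1 to 356 CPM in WT DZ. In LZ they summed to 32.8 to 90.3 CPM in SykY317F and 38.4 to 145 CPM in WT. The zones thus did not overlap in SykY317F and overlapped in WT. The 4 plasma cell markers summed to 218 to 1228 CPM, with Sdc1 at 0 UMIs in SykY317F LZ. The part of other cell types in the zone and genotype differences was not tested.

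Members were expressed at low levels. They took 62204 of 12818090 UMIs, or 0.485%, with a median of 142 UMIs per member over the 14 libraries and a range of 13 to 3489. The 10 highest members held 30.2% of the members' UMIs. The number of members with at least 1 UMI was 133 to 164 in SykY317F LZ libraries, 185 to 227 in WT LZ, 183 to 226 in SykY317F DZ and 208 to 227 in WT DZ. When each library was thinned to 149641 UMIs, the expected numbers were 132 to 134 in SykY317F LZ, 127 to 174 in WT LZ, 137 to 183 in SykY317F DZ and 124 to 179 in WT DZ, so that SykY317F LZ lay below SykY317F DZ and within both WT ranges. The filter on low counts kept 148 members, or 65.2%, against 80.2% of all genes in the table, and the other 79 were not tested. The tested members held 94.3% of the members' UMIs.

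The highest levels belonged to Zfp207, Zfp36l1, Zfp36, Zfp740, Zfp106, Zfp710, Zfp513, Zfp362, Zfp414 and Zfp771, in that order by the mean of the 4 group means. The protocol tags transcript ends, so that CPM was not divided by transcript length. Zfp207, which stabilises Bub3 at kinetochores, averaged 175 ± 44.2 CPM in SykY317F LZ and 235 ± 58.9 CPM in WT LZ, and 252 ± 37.2 CPM in SykY317F DZ and 307 ± 52.2 CPM in WT DZ (SD, n = 3, 4, 3 and 4 libraries). The order among neighbours in this list was not resolved: Zfp106 ranged from 50.2 to 203 CPM and Zfp740 from 69.0 to 177 CPM over libraries. The lowest tested member was Zfp748, a KRAB box member with 1 UMI in SykY317F LZ, 17 in WT LZ, 24 in SykY317F DZ and 24 in WT DZ.

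The first question was whether members differ between zones. LZ was compared with DZ in each genotype and as the mean of both zone differences, with edgeR's quasi-likelihood test over 7999 genes. In bulk RNA, fewer cells of a type and less RNA per cell cannot be told apart. The myeloid marker sums separated the zones in SykY317F, and the germinal centre B cell marker sums separated them in WT. Their part in the zone differences was not tested. By Benjamini-Hochberg adjusted p under 0.05, 1 member was called for the mean of both genotypes, where 1.43% of all genes tested were called. In WT 0 members were called (0.188% of all genes) and in SykY317F 0 (0.0375%). Unadjusted p was under 0.05 for 4 members in WT, 12 in SykY317F and 12 for the mean, or 2.70%, 8.11% and 8.11% of the tested members, against 8.48%, 10.3% and 14.3% of all genes. DESeq2's Wald test called 0 members in WT, 0 in SykY317F and 3 for the mean, and limma voom called 3, 0 and 2. The shares of all genes called by DESeq2 and limma voom are not given here, so that these counts have no background beside them.

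Zfp422, a C2H2 gene at chr6:116624016-116628999 with no annotated overlap, was read in 0, 0 and 0 UMIs in the SykY317F LZ libraries. It had 11, 10, 7 and 28 UMIs in WT LZ, 27, 25 and 4 UMIs in SykY317F DZ and 10, 26, 27 and 31 UMIs in WT DZ. Every library outside SykY317F LZ thus held Zfp422, while the 3 SykY317F LZ libraries held none in 730647 UMIs. The corresponding levels were 12.9 ± 2.63 CPM in WT LZ, 15.8 ± 4.36 CPM in SykY317F DZ and 19.0 ± 4.56 CPM in WT DZ (SD, n = 4, 3 and 4). At the SykY317F DZ rate 11.7 UMIs would have been read in SykY317F LZ, and at the WT LZ rate 9.01. With 3 UMIs over the whole group as the floor, Zfp422 was at least 3.89-fold lower in SykY317F LZ than in SykY317F DZ, and at least 3.0-fold lower than in WT LZ.

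For the mean of both genotypes the edgeR adjusted p of Zfp422 was 0.0172, and its fitted fold change is not given because it depends on the count assumed for an empty group. In WT alone its log2 fold change was -0.55 ± 0.39 (SE, adjusted p = 0.745, edgeR), within the spread between libraries. The adjusted p was 0.103 in SykY317F and 0.85 for the difference of zone effects, so that a difference between genotypes in its zone effect was not shown. The call was lost without SykY317F DZ replicate 1 (adjusted p = 0.0568, edgeR) and without SykY317F LZ replicate 1 (0.0734). The 2 libraries with the fewest UMIs are SykY317F LZ replicates 2 and 4. Leaving both out keeps replicate 1 alone in that group, so that no p-value is read from that fit. Over the 24 alternatives, that one aside, values ran from 0.0167 to 0.0734. Zfp422 was not alone in its pattern: 630 genes of the table, 28 of them members, had 0 UMIs in all SykY317F LZ libraries, and 6 genes, Zfp422 included, had 0 there with at least 56 in WT LZ. In the read count table Zfp422 had 0 reads in SykY317F LZ, against 87 in WT LZ. Those reads come from the same libraries with PCR copies kept, so that this is not a second observation.

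**Figure D1:**
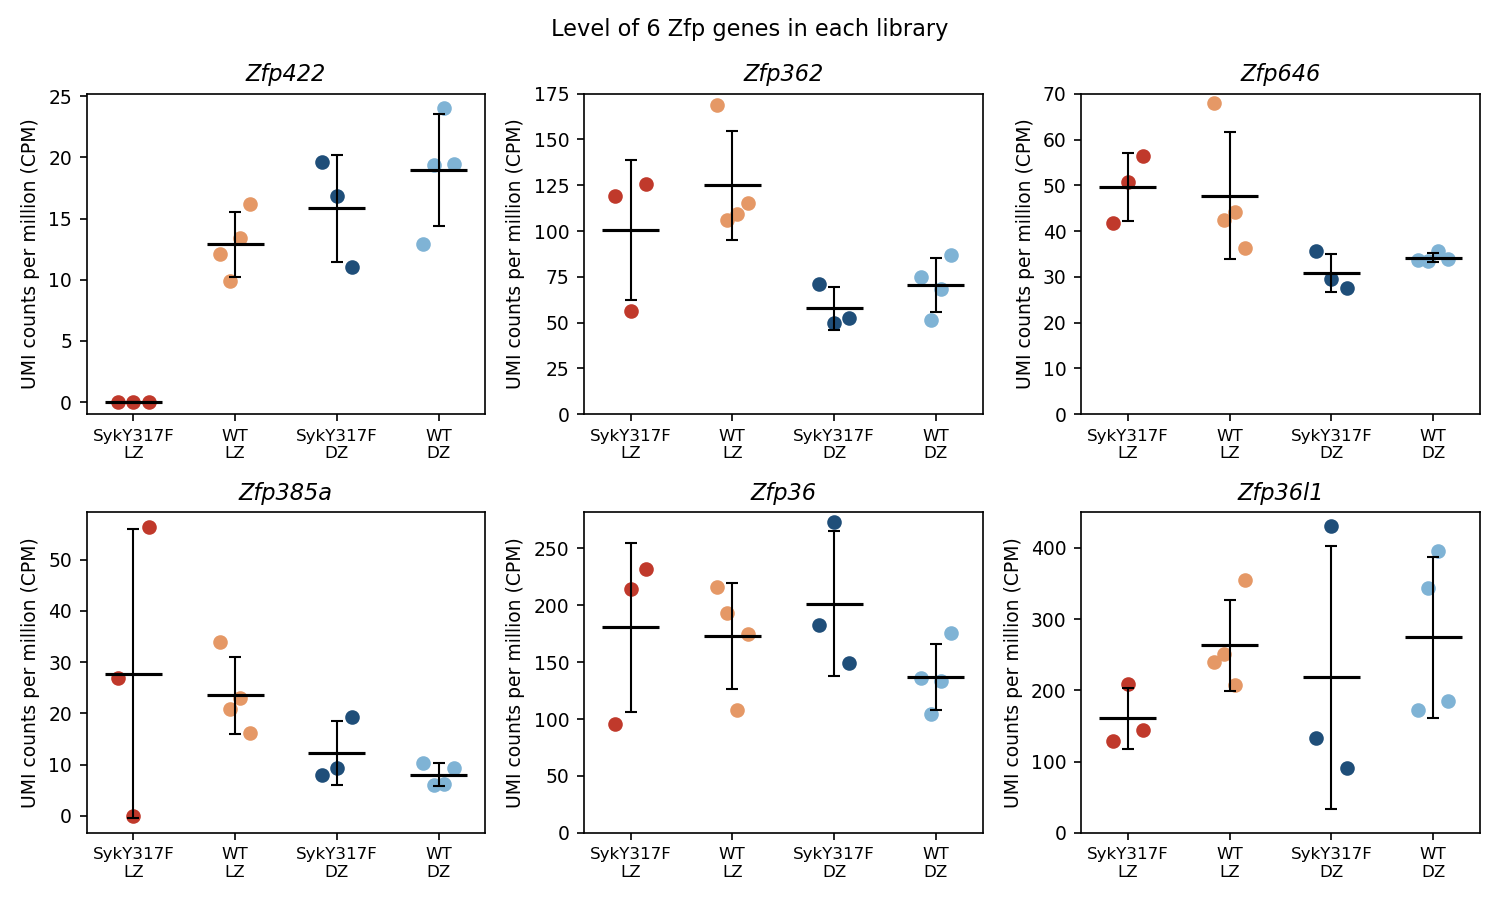
Level in CPM of 6 members in each library (points) by group, with the mean (horizontal line) and SD (bar). Zfp422 is at 0 in the 3 SykY317F LZ libraries, the 7 LZ libraries of Zfp646 lie above its 7 DZ libraries, and the groups overlap for Zfp36 and Zfp36l1.

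Zfp362, a C2H2 gene at chr4:128773088-128806045 and the member with the smallest p in WT, had 119, 56.5 and 125 CPM in SykY317F LZ and 169, 106, 109 and 115 CPM in WT LZ, against 71.1, 49.8 and 52.5 CPM in SykY317F DZ and 75.1, 51.5, 68.5 and 86.7 CPM in WT DZ. All WT LZ libraries lay above all WT DZ libraries, while SykY317F LZ replicate 2 lay among the DZ values. The log2 fold change of LZ over DZ was 0.83 ± 0.26 in WT, 0.80 ± 0.33 in SykY317F and 0.81 ± 0.21 for the mean (SE), with an edgeR adjusted p of 0.251, 0.415 and 0.0579. It passed for the mean in 6 of 24 alternatives, among them DESeq2 (adjusted p = 0.0127), and its range was 0.0127 to 0.269.

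Zfp385a, which binds p53 and messenger RNA, had 26.9, 0 and 56.5 CPM in SykY317F LZ and 34.0, 20.8, 23.0 and 16.2 CPM in WT LZ, against 7.99, 9.42 and 19.4 CPM in SykY317F DZ and 10.4, 5.97, 6.23 and 9.42 CPM in WT DZ. The WT zones did not overlap, and SykY317F LZ held both the highest and the lowest library. Its log2 fold change for the mean of both genotypes was 1.42 ± 0.43 (adjusted p = 0.117, edgeR), and it passed in 2 of 24 alternatives, with adjusted p from 0.0233 (DESeq2) to 0.286.

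Zfp646, at chr7:127876221-127885996, was the only tested member whose 7 LZ libraries all lay above its 7 DZ libraries, a pattern of 0.263% of all genes tested, and 0 members had the reverse pattern (0.325%). It had 41.8, 50.8 and 56.5 CPM in SykY317F LZ and 68.0, 42.5, 44.1 and 36.4 CPM in WT LZ, against 35.6, 29.6 and 27.6 CPM in SykY317F DZ and 33.7, 33.6, 35.6 and 33.9 CPM in WT DZ. The lowest LZ and the highest DZ library were close, and the log2 fold change was 0.56 ± 0.22 (adjusted p = 0.237, edgeR). Zfp646, named here after its values were seen, overlaps Zfp668 and Prss53 on the other strand. Whether counting used the strand is not given in the sources used here, so that reads of these genes may be mixed. The DNA repair gene Zfp668 had a log2 fold change of 0.28 ± 0.26 (adjusted p = 0.674).

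Other members with small p-values did not pass. Zfp358 had 20.9, 22.6 and 18.8 CPM in SykY317F LZ, against 5.81, 7.40 and 2.76 CPM in SykY317F DZ, on 14 and 20 UMIs, and its log2 fold change there was 1.81 ± 0.65 (adjusted p = 0.346, edgeR). Zfp639 had 44.8, 56.5 and 81.5 CPM in SykY317F LZ, against 25.4, 35.7 and 30.4 CPM in SykY317F DZ, with a log2 fold change of 0.95 ± 0.38 (adjusted p = 0.404). Zfp655, known to bind the signalling protein Vav1, had 5.97, 5.65 and 0 CPM in SykY317F LZ, against 9.44, 28.9 and 22.1 CPM in SykY317F DZ, with a log2 fold change of -2.15 ± 0.86 (adjusted p = 0.401). For these 3 members the SykY317F zones did not overlap in CPM.

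Zfp280b had 14.9, 45.2 and 113 CPM in SykY317F LZ, against 18.1, 12.8 and 22.1 CPM in SykY317F DZ. Its log2 fold change of 1.65 ± 0.58 (adjusted p = 0.342, edgeR) turned to -0.19 without the 2 libraries with the fewest UMIs. These are SykY317F LZ replicates 2 and 4, so that only replicate 1, at 14.9 CPM, stayed in that group. In WT, Zfp579 had 38.4, 32.6, 30.7 and 30.0 CPM in LZ, against 20.7, 14.2, 15.1 and 22.6 CPM in DZ, with a log2 fold change of 0.86 ± 0.33 (adjusted p = 0.418). Among members with fold changes under 0 in WT, Zfp53 had a log2 fold change of -1.59 ± 0.71 (adjusted p = 0.555), Zfp746 of -0.53 ± 0.27 and Zfp281 of -2.14 ± 1.08 (both adjusted p = 0.614). Zfp207 had a log2 fold change of -0.46 ± 0.18 for the mean of both genotypes (adjusted p = 0.229).

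Counts of groups that did not overlap were near or under those of all genes. In WT, LZ lay wholly above DZ for 4 members (Zfp362, Zfp385a, Zfp579 and Zfp646), or 2.70% of those tested against 2.89% of all genes, and wholly below for 0, against 2.88%. In SykY317F, LZ lay wholly above DZ for 6 members, or 4.05% against 6.56%, and wholly below for 11, or 7.43% against 8.50%.

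Of the 148 tested members, 50 were higher and 98 lower in LZ by the mean of both genotypes, with a median log2 fold change of -0.15, against -0.03 over all 7999 genes. The median was -0.06 in WT and -0.16 in SykY317F, against -0.02 and -0.04 over all genes. Setting the 5 members with 0 UMIs in SykY317F LZ to their bounds left the SykY317F median at -0.16 and the mean at -0.15. The median for the mean of both genotypes was 0.01 without SykY317F DZ replicate 2 and -0.05 once the trend of each library with transcript GC was removed. The zone differences of the 2 genotypes, which share no library, had the same sign for 81 of 148 members, or 54.7%, against 61.3% of all genes, and correlated across the members at Pearson's r = 0.31 and Spearman's rho = 0.26, against 0.30 and 0.31 across all genes. Genes are not independent replicates, and these are descriptions.

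**Figure D2:**
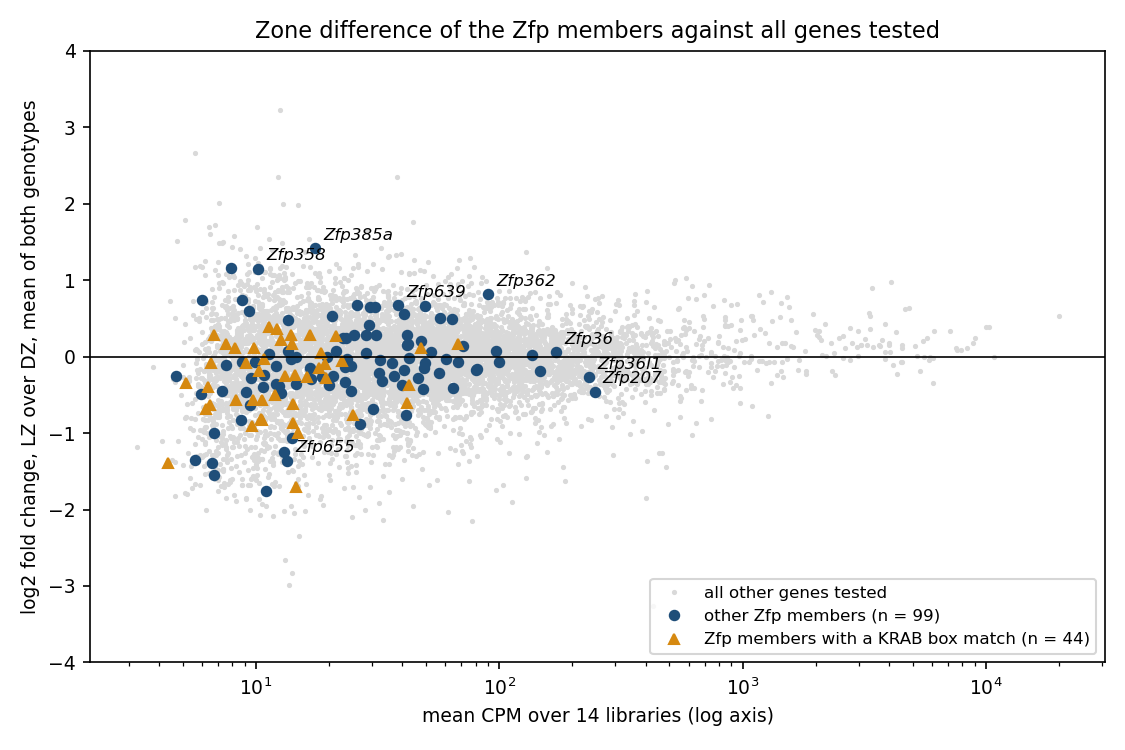
Log2 fold change of LZ over DZ as the mean of both genotypes (vertical axis) against the mean CPM over 14 libraries (horizontal log axis) for 44 members with a KRAB box match (triangles), 99 other members (circles) and all other genes tested (grey). Genes with 0 UMIs in a group, 5 members among them, are not drawn; the members spread most at low levels, as the grey points do, and Zfp362 and Zfp385a are above 0.

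**Figure D3:**
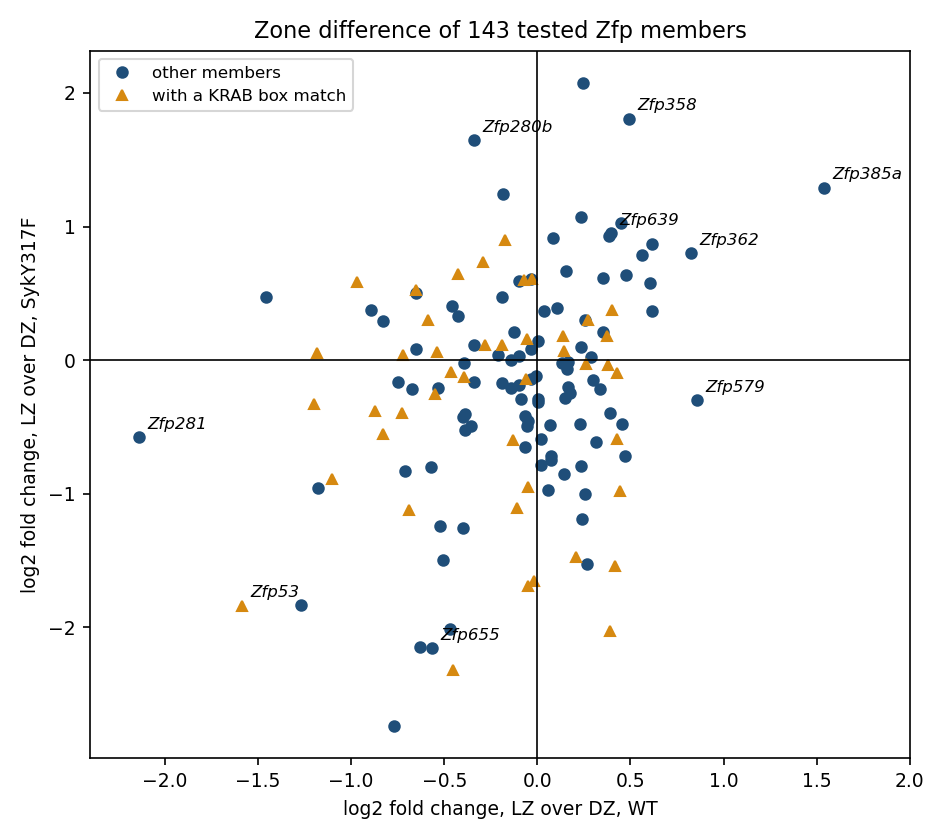
Log2 fold change of LZ over DZ in SykY317F (vertical axis) against that in WT (horizontal axis) for 143 tested members, with the 5 members at 0 UMIs in SykY317F LZ left out. Zfp362, Zfp385a, Zfp358 and Zfp639 lie above 0 on both axes, and Zfp53, Zfp281 and Zfp655 below 0 on both.

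The second question was whether SykY317F changes member levels. With edgeR, 0 members were called for SykY317F over WT in DZ, 0 in LZ and 0 for the mean of both zones, and 0.00% of all genes tested were called in each. DESeq2 and limma voom also called 0 in each. Unadjusted p was under 0.05 for 0 members in DZ, 7 in LZ and 4 for the mean, or 0.00%, 4.73% and 2.70%, against 3.81%, 9.81% and 10.1% of all genes. The smallest adjusted p were 1.0, 0.12 and 0.145, the 0.12 and the 0.145 belonging to Zfp422. The median log2 fold change of the members was -0.02 in DZ and -0.09 in LZ, against -0.04 and -0.06 over all genes.

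The T cell marker sums separated the genotypes in DZ, and their part in the genotype differences there was not tested. In DZ, SykY317F lay wholly above WT for Zfp1, Zfp579 and Zfp831 and wholly below for Zfp280b, Zfp687 and Zfp839, which is 2.03% each way against 3.56% and 2.31% of all genes. Zfp1 had 67.5, 103 and 74.6 CPM in SykY317F DZ, against 57.0, 50.0, 55.2 and 43.3 CPM in WT DZ, with a log2 fold change of 0.68 ± 0.34 (adjusted p = 1.0, edgeR). Zfp839 had 18.9, 20.9 and 19.4 CPM in SykY317F DZ, against 27.2, 29.8, 34.7 and 29.5 CPM in WT DZ, with -0.62 ± 0.33. Zfp687 had 66.1, 65.2 and 60.8 CPM in SykY317F DZ, against 88.0, 73.8, 97.0 and 70.3 CPM in WT DZ, with -0.35 ± 0.27. Zfp687 overlaps Pi4kb on the other strand. Zfp580, which shares its strand with the overlapping Ccdc106, had -0.66 ± 0.51 and overlapping groups.

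In LZ, SykY317F lay wholly above WT for Zfp358 alone, or 0.676% of members against 3.84% of all genes, and wholly below for 9 members (Zfp148, Zfp236, Zfp275, Zfp317, Zfp326, Zfp422, Zfp579, Zfp747 and Zfp84), or 6.08% against 6.66%. Over both zones, 0 members had all SykY317F above all WT libraries and 0 the reverse, against 0.025% and 0.075% of all genes. Zfp358 had 20.9, 22.6 and 18.8 CPM in SykY317F LZ, against 14.3, 7.91, 11.5 and 5.20 CPM in WT LZ, with a log2 fold change of 1.14 ± 0.59 (adjusted p = 0.548, edgeR). Zfp148, which binds GC-rich promoters, had 0, 0 and 0 UMIs in SykY317F LZ, against 3, 8, 5 and 10 in WT LZ, and 9, 19 and 2 in SykY317F DZ, against 6, 19, 13 and 1 in WT DZ. On the same floor it was at least 1.39-fold lower in SykY317F LZ than in WT LZ and at least 2.08-fold lower than in SykY317F DZ. Its edgeR adjusted p in LZ was 0.456, and of 21 alternatives only the read counts called it (0.0481).

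Other members with small p-values in LZ did not pass. Zfp236 had 3, 0 and 1 UMIs in SykY317F LZ, against 16, 12, 11 and 28 in WT LZ, with a log2 fold change of -1.49 ± 0.68 (adjusted p = 0.467, edgeR). Zfp608 had 107, 50.8 and 100 CPM in SykY317F LZ, against 40.6, 54.4, 38.4 and 73.3 CPM in WT LZ, with 0.73 ± 0.38 (adjusted p = 0.543), and its groups overlapped. For Zfp280b the value of 1.36 ± 0.52 (adjusted p = 0.397) turned to -0.47 without the 2 libraries with the fewest UMIs, which leaves SykY317F LZ replicate 1 alone in its group. For the mean of both zones, Zfp84 had -1.72 ± 0.70 (adjusted p = 0.403), Zfp865 -0.63 ± 0.29 (0.490), Zfp691 0.72 ± 0.36 (0.510) and Zfp639 0.39 ± 0.24 (0.610). Zfp865 overlaps Ccdc106 and other genes on its own strand, so that reads of these genes could be split between them.

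The difference of zone effects between the genotypes was tested directly. It called 0 members, and 0.00% of all genes, and DESeq2 and limma voom called 0. Unadjusted p was under 0.05 for 3 members, Zfp422, Zfp148 and Zfp280b, or 2.03% against 4.80% of all genes. The value for Zfp280b was 1.98 ± 0.72 on the log2 scale (adjusted p = 0.991, edgeR), for Zfp579 -1.15 ± 0.55, for Zfp358 1.32 ± 0.82 and for Zfp35 1.43 ± 0.86 (adjusted p = 0.999 each). From the authors' deposited table, the 4 comparisons of zones within genotypes and genotypes within zones were read. These list 0 members under an adjusted p of 0.05, with the smallest at 0.104 in the WT zones. Deposited comparisons that cross zone and genotype were not read, and the share of all genes was not counted.

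By known role, the first group is mRNA decay. Zfp36, the founder of the mRNA decay group, had 95.5, 215 and 232 CPM in SykY317F LZ and 216, 193, 107 and 174 CPM in WT LZ, against 182, 273 and 149 CPM in SykY317F DZ and 136, 104, 133 and 175 CPM in WT DZ. Its groups overlapped, with a log2 fold change of 0.06 ± 0.22 for LZ over DZ and 0.29 ± 0.22 for SykY317F over WT (adjusted p = 0.942 and 0.697, edgeR). Zfp36l1, which restrains cell cycle entry of developing B cells, had 128, 209 and 144 CPM in SykY317F LZ and 240, 251, 207 and 355 CPM in WT LZ, against 133, 431 and 91.2 CPM in SykY317F DZ and 172, 344, 396 and 185 CPM in WT DZ. SykY317F DZ replicate 2 and WT DZ replicates 3 and 4 stood above the other DZ libraries, and the log2 fold changes were -0.27 ± 0.32 and -0.52 ± 0.32 (adjusted p = 0.761 and 0.626). Zfp36l2 was far lower, at 0 to 19.5 CPM, and did not pass.

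Of the 8 tested members that act in RNA processing or on ribosomes, 0 passed edgeR's test in any of the 7 comparisons. Zfp385a belongs to this list and had its smallest p for LZ over DZ as the mean of both genotypes, where DESeq2 called it (adjusted p = 0.0233), and limma voom called it in WT (adjusted p = 0.0409, the lowest of 26 alternatives there, the highest being 1.0). Zfp598, the ubiquitin ligase that marks collided ribosomes, had a log2 fold change of 0.49 ± 0.24 for LZ over DZ (adjusted p = 0.364, edgeR). Zfp326, part of a complex that links splicing to transcription, had -0.79 ± 0.37 for SykY317F over WT (adjusted p = 0.490). Zfp318, needed for the joint processing of IgM and IgD transcripts in B cells, had 8.95, 11.3 and 6.27 CPM in SykY317F LZ and 2.19, 10.9, 1.92 and 10.4 CPM in WT LZ, against 10.9, 34.3 and 2.76 CPM in SykY317F DZ and 9.06, 8.95, 8.90 and 0.628 CPM in WT DZ. Its highest library was SykY317F DZ replicate 2, with 51 UMIs, and its log2 fold change for SykY317F over WT in DZ was 1.39 ± 0.72 (adjusted p = 1.0). Zfp593, Zfp638, Zfp346 and Zfp106 had log2 fold changes of -0.25, -1.07, -0.14 and 0.02 for LZ over DZ, and that of Zfp638 had an SE of 0.97.

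Of 4 tested members of mitosis and genome maintenance, 7 tested partners of chromatin complexes, 3 tested KRAB-type silencers and 7 tested broad regulators, 0 passed edgeR's test in any comparison. Zfp148, a broad regulator, was called in LZ with the read counts (adjusted p = 0.0481). For LZ over DZ as the mean of both genotypes, 6 of the 7 chromatin partners were lower, with a median log2 fold change of -0.41, against -0.15 over all tested members and -0.03 over all genes, of which 4296 of 7999 were lower. The median of all members was 0.01 without SykY317F DZ replicate 2. Among these partners, Zfp644, a partner of the histone methyltransferase G9a, had -1.75 ± 0.98 and Zfp609, which binds the cohesin loader, -0.83 ± 0.54 (adjusted p = 0.429 and 0.506, edgeR). Zfp217, a partner of CoREST, was at 0.05 ± 0.26, Zfp592, a partner of Zmynd8, at -0.34 ± 0.38 and Zfp296 at -0.03 ± 0.22. Of the mitosis and genome maintenance list, Zfp451, a SUMO ligase, was at -0.28 ± 0.48 and Zfp367 at -0.39 ± 0.66. By library, Zfp644 had 0, 0 and 6.27 CPM in SykY317F LZ and 1.10, 12.9, 5.76 and 21.9 CPM in WT LZ, against 2.18, 24.2 and 2.76 CPM in SykY317F DZ and 15.5, 26.8, 31.1 and 3.77 CPM in WT DZ. Its libraries spanned wide ranges within each group, and SykY317F LZ held 1 UMI in all.

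Among the KRAB-type silencers, Zfp445, which keeps imprints, had 5.97, 50.8 and 107 CPM in SykY317F LZ and 15.4, 43.5, 11.5 and 64.1 CPM in WT LZ, against 28.3, 83.4 and 16.6 CPM in SykY317F DZ and 54.4, 76.8, 86.3 and 7.54 CPM in WT DZ. Every group held both a high and a low library, and the log2 fold changes were -0.28 ± 0.66 for LZ over DZ and 0.08 ± 0.66 for SykY317F over WT. Zfp568, which silences a placental Igf2 transcript, had 0.11 ± 0.45 and 0.65 ± 0.44, and Zfp809, which silences retroviral DNA, -0.50 ± 0.48 and -0.09 ± 0.48 (adjusted p of 0.663 or more for the 3 genes, edgeR). Among the broad regulators, Zfp335, needed for T cell maturation, had 0.66 ± 0.26 for LZ over DZ (adjusted p = 0.237). Zfp131 had -0.68 ± 0.55, Zfp143 -0.35 ± 0.40, Zfp91 -0.43 ± 0.34, Zfp384 -0.07 ± 0.20 and Zfp410 0.05 ± 0.30. Reads of Zfp91 and of the readthrough symbol Zfp91Cntf could be split between both.

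**Figure D4:**
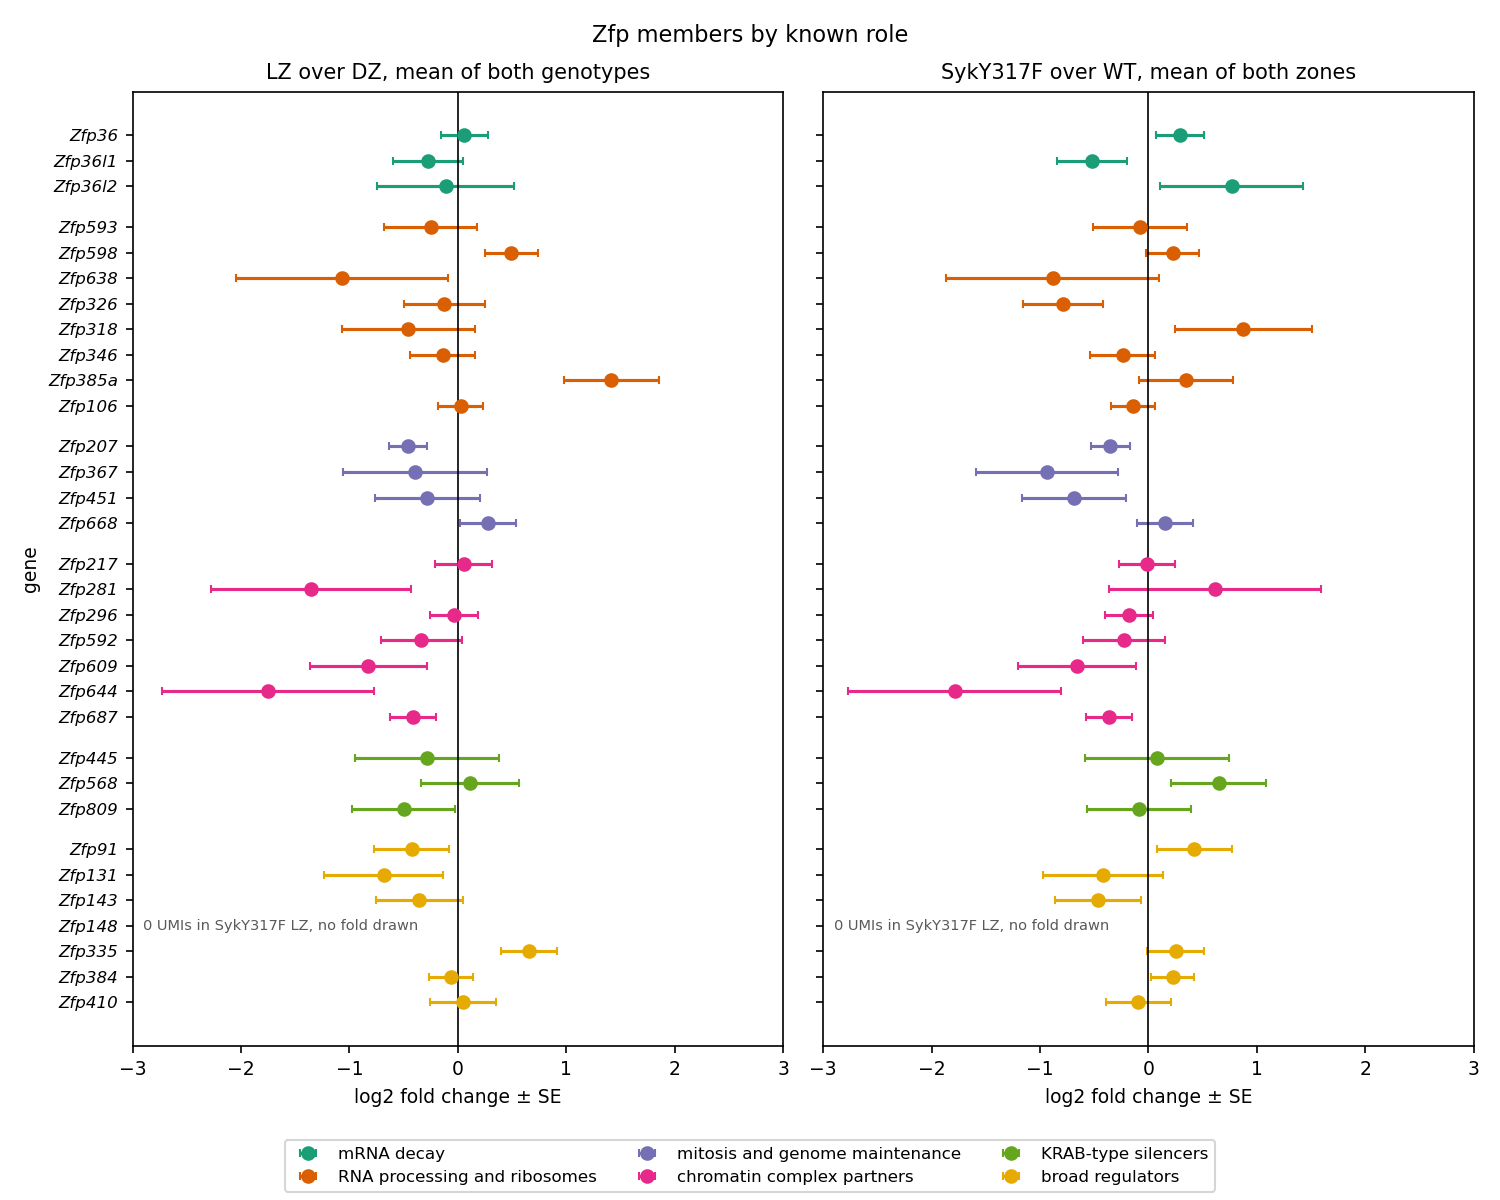
Log2 fold change with its SE (bars) of each tested member of the role lists, for LZ over DZ as the mean of both genotypes (left) and SykY317F over WT as the mean of both zones (right), coloured by role. None passed edgeR's test, while DESeq2 called Zfp385a on the left; Zfp148 has 0 UMIs in SykY317F LZ and no fold is drawn.

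Tested members with a KRAB box match varied most between libraries of the same group. Their median SD of log2 CPM within groups was 0.93, against 0.57 for the other tested members and 0.52 for all genes tested. Of the members with a match, 47 of 99 were tested, against 100 of 127 of the others. Tested or not, the 99 members had a median of 68 UMIs over all libraries, against 215 for the 127 others and 337 for all genes in the table. The SD includes counting error, which is larger at low counts, and sets of equal level were not compared. Transcripts of the 99 members were poor in GC, with a median of 41.4%, against 51.1% for the 127 others and 50.7% for all genes.

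The summed level of the 99 members with a KRAB box match was 692, 852 and 809 CPM in SykY317F LZ and 625, 832, 658 and 1057 CPM in WT LZ, against 661, 1355 and 768 CPM in SykY317F DZ and 874, 1171, 1218 and 575 CPM in WT DZ. Libraries of one group differed by up to 2.12-fold (WT DZ), and all 4 groups overlapped. The means were 785 ± 82.7 CPM in SykY317F LZ and 793 ± 198 CPM in WT LZ, and 928 ± 374 CPM in SykY317F DZ with 959 ± 298 CPM in WT DZ (SD, n = 3, 4, 3 and 4). For the 127 members without a match the largest ratio within a group was 1.39-fold (SykY317F DZ).

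The mean GC content of the transcripts of all other genes, weighted by their UMIs, moved with this sum. It was 53.3%, 52.9% and 52.6% in SykY317F LZ and 53.7%, 53.2%, 52.9% and 52.5% in WT LZ, against 53.0%, 52.4% and 53.0% in SykY317F DZ libraries, while WT DZ libraries had 53.0%, 52.2%, 52.1% and 53.5%, in the same order. The 4 libraries with the highest KRAB sums, SykY317F DZ replicate 2, WT DZ replicates 3 and 4 and WT LZ replicate 5, were also the 4 with the lowest GC content. The 2 with the lowest KRAB sums, WT DZ replicate 5 and WT LZ replicate 1, had the highest.

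The same libraries deviated in single members and in genes outside the family. In WT DZ replicate 5, 6 of the 47 tested KRAB box members lay above their group mean, with a median deviation of -0.77 (log2), and in SykY317F DZ replicate 2 it was 42 of 47, with 0.52. The 1401 tested genes outside the family with a transcript GC content under 44.8% had median deviations of -0.73 and 0.38 in these 2 libraries. Once that trend with transcript GC was removed from each library, the median SD of the tested KRAB box members was 0.82. That of the other tested members was 0.54, against 0.50 for all genes tested. The part of transcript GC content in these differences was not tested beyond that.

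**Figure D5:**
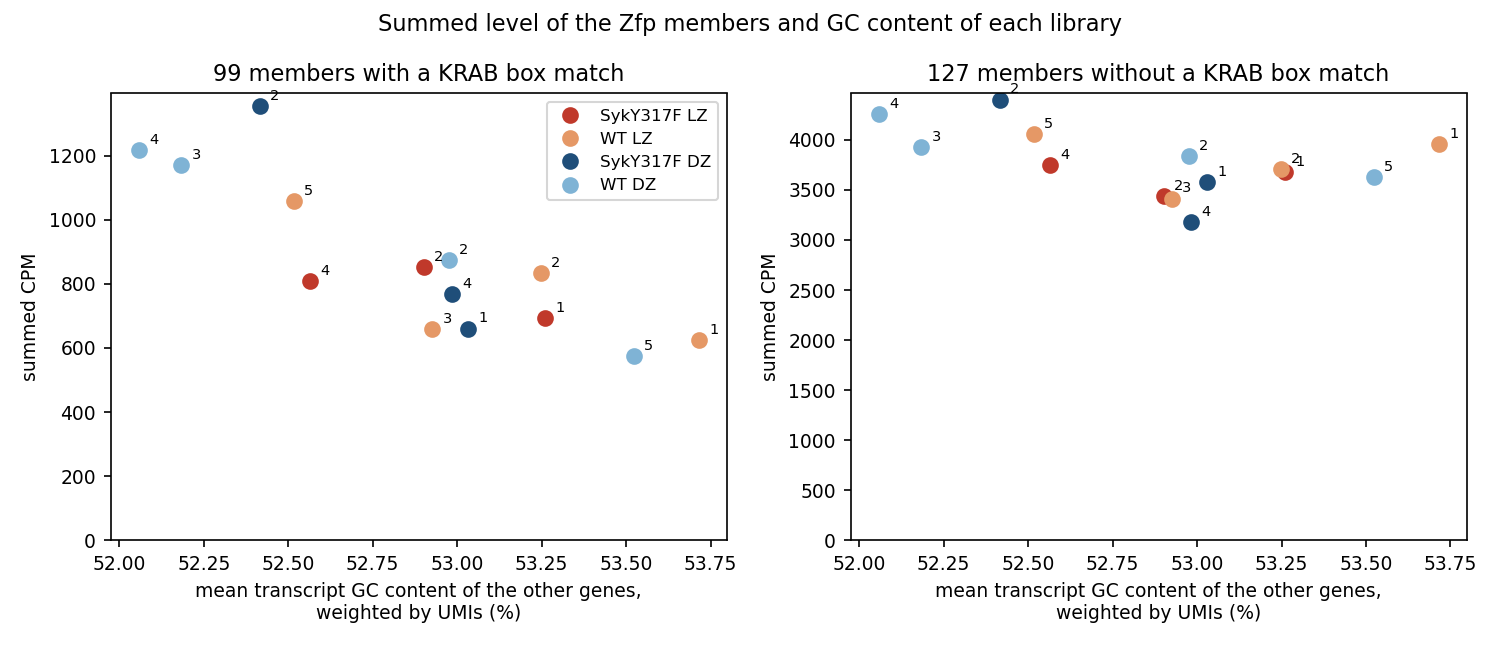
Summed CPM of the 99 members with a KRAB box match (left) and of the 127 without (right) against the mean transcript GC content of the other genes in each library, weighted by UMIs. Each point is a library with its replicate number, coloured by group; the KRAB sums span 575 to 1355 CPM and are highest in the 4 libraries with the lowest GC content.

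For the 47 tested members with a KRAB box match the median log2 fold change of LZ over DZ was -0.27 as the mean of both genotypes, with 14 higher and 33 lower, and for the 100 others it was -0.12, with 35 higher and 65 lower. The corresponding medians were -0.19 and -0.02 in WT and -0.12 and -0.18 in SykY317F, so that the order of both sets differed between the genotypes.

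The partners that members act through were read beside them. Of 19 tested genes of the KRAB corepressor machinery and 23 of mRNA deadenylation and decay, 0 were called by edgeR in any comparison. Trim28, the corepressor that KRAB boxes bind, had a log2 fold change of -0.02 ± 0.19 for LZ over DZ and -0.18 ± 0.19 for SykY317F over WT (adjusted p = 0.981 and 0.780, edgeR). Cbx1, a heterochromatin protein, had -0.97 ± 0.39 and -1.28 ± 0.38 (adjusted p = 0.248 and 0.240). Cnot6, a deadenylase of the complex that Zfp36 proteins recruit, had -1.77 ± 0.49 and -1.84 ± 0.50 (adjusted p = 0.0815 and 0.191).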

How the data were processed

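Germinal centre B cells were sorted by zone and genotype and sequenced with a MARS-seq variant that tags transcript ends, per the labels' protocols. Tools listed by the submitters' processing notes, without their roles, are STAR 2.4.2a, cutadapt, HTSeq, DESeq and DESeq2, with the build mm10. The UMI counts, deposited per symbol without normalization, were the main data, and the deposited read counts, which keep PCR copies, an alternative. Size-factor normalised values (a signal) and regularised log2 values deposited by the authors were not tested. Deposited log2 fold changes and adjusted p-values served to count the authors' calls.

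Here 9969 genes were filtered with filterByExpr, which left 7999, scaled by TMM and fitted over the 4 groups with edgeR 4.0.16's robust quasi-likelihood test in R 4.3.3. Benjamini-Hochberg adjustment ran over all tested genes of each of the 7 contrasts, at 0.05. Each SE was derived as the absolute log2 fold change over the square root of the test's F statistic. It is thus approximate, and least reliable for fold changes near 0. Alternatives were another scaling, another filter, the groups of a contrast alone, DESeq2 1.42.0, limma 3.58.1 voom, read counts, a replicate block, each library left out, both libraries with the fewest UMIs left out and, chosen after seeing the data, correction of every library for transcript GC and leaving out the 4 libraries under 400000 UMIs. For members with 0 UMIs in a group, folds are bounds against 3 UMIs over the group, which cover counting error only.

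Members and lists were chosen with earlier results of these data known. Text names 56 members by rule: any called, the 3 smallest p in each direction of each contrast, the 10 highest, the role list members that were tested, and the highest and lowest tested. Others named were chosen after their values were seen. Positions, transcript GC content and finger and KRAB patterns come from the GENCODE annotation of GRCm38. Only the main edgeR fit was tested on simulated counts.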

Additional observations from a re-analysis of the deposited data

Results flagged for a closer look

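In groups of 4 libraries, 122 sets of values of the named members and of the members' summed measures were screened for a single library far from the other 3, and 8 stood out. Chance alone gives about 1 in 20. Among WT LZ libraries, replicate 1 stood high for Zfp106 at 166 CPM and for Zfp362 at 169 CPM. Replicate 3 stood high for Zfp568 at 9.60 CPM, and replicate 5 stood high in the members' share of UMIs, at 0.556%. Among WT DZ libraries, replicate 2 stood low for Zfp207 at 229 CPM and replicate 5 stood low for Zfp318 at 0.628 CPM. WT DZ replicate 3 stood high for Zfp609 at 13.4 CPM and for Zfp639 at 35.1 CPM. The SykY317F groups, with 3 libraries each, were not screened.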

How the results depend on the processing

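Over the alternatives, 162 counts of called members stayed and 12 moved. For LZ over DZ as the mean of both genotypes, the count of 1 became 3 with DESeq2. It became 2 with the stricter filter, with limma voom and with the GC trend removed. Each of these added Zfp362, and DESeq2 added Zfp385a as well. The shares of all genes called under these alternatives are not given here. With 1 library left out, the count of members ranged from 0 to 3. It was 0 without SykY317F LZ replicate 1 or SykY317F DZ replicate 1, 2 without WT DZ replicate 5 and 3 without SykY317F LZ replicate 2. In WT the count was 3 with limma voom. With read counts it was 1 for the SykY317F zones and 2 for SykY317F over WT in LZ. Leaving out the 2 libraries with the fewest UMIs keeps SykY317F LZ replicate 1 alone in its group. The log2 fold change of Zfp280b then reversed to -0.19 in the SykY317F zones and -0.47 for SykY317F over WT in LZ. The library that was kept had the lowest Zfp280b level of its group. The cause of that spread between libraries was not tested.

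Whether equal replicate numbers mark the same mouse is not stated by the labels. In their deviations from group means, same-numbered libraries of a genotype correlated at -0.56 to 0.21, with 3 of 6 pairs over 0.1. With pairs across genotypes included, since a chimeric host holds both, the values were -0.56 to 0.31, with 8 of 14 pairs over 0.1. These values cannot decide on pairing, because the deviations also followed transcript GC. That correlation was -0.57 in WT LZ replicate 5 and 0.58 in WT DZ replicate 5. With the replicate block, 1 member was called for the mean of both genotypes and 0 in each other comparison. Depth limits the members most in SykY317F LZ, where 3 UMIs equal 8.95 to 18.8 CPM, close to many members' levels.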

Other observations

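The deposited read count table holds 275 symbols of the family, and 48 of them are not in the UMI table and were not analysed here. The 3 other symbols that start with Zfp in the UMI table, Zfp862-ps, Zfpl1 and Zfpm1, do not follow the naming rule.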
